A study of Mus musculus with 14 samples.

Results

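The genes described here encode the eukaryotic translation initiation factors (eIF) and elongation factors (eEF) of the mouse. They were taken by symbol: every gene of the table whose symbol starts with Eif1 to Eif6 or with Eef, without the eIF2 kinases and the eIF4E-binding proteins, which regulate these factors. This gave 82 of 40800 genes, of which 67 had enough reads to be tested. The rule uses names only, so it also takes the enzymes that phosphorylate or methylate the elongation factors and a family of Eif1ad copies. The study sequenced total RNA of mouse embryonic fibroblasts (MEFs), giving 14 libraries in 7 groups of 2. One group was the control at 0 h. The others were starved of amino acids for 3, 6 or 12 h, or of glucose for 3, 6 or 12 h. The labels give no genotype, strain or age of the embryos. Nor do they tell whether a group's 2 libraries are separate cultures, and the p-values below reflect the variation among these libraries, which may be technical. By the study's design text, dialyzed serum was used in the medium and in the freezing mix of starved cells, while the control kept its medium and was frozen with ordinary serum. Handling and starvation therefore cannot be told apart where starved cells are compared with the control. The 6 comparisons with the control share its 2 libraries.

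Translation starts when eIF2, carrying initiator tRNA and GTP, joins eIF1, eIF1A, eIF5 and the large eIF3 complex on the small ribosomal subunit. The eIF4 factors bind the cap of the mRNA and unwind its leader, and the subunit scans to the start codon. eIF2 is then reloaded with GTP by eIF2B, and stress kinases such as GCN2, which senses amino acid shortage, phosphorylate eIF2 and thereby inhibit eIF2B. In elongation, eEF1A brings aminoacyl-tRNA to the ribosome and eEF2 moves the ribosome along the mRNA; the kinase eEF2K inactivates eEF2 by phosphorylation. Many of these mRNAs are known to begin with a C followed by a run of pyrimidines, the 5′ terminal oligopyrimidine motif, through which mTORC1 controls their translation when amino acids are short. The data here are mRNA levels; protein levels, phosphorylation and translation were not measured.

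For each gene only the transcript with the most reads was kept, and the kept transcripts held 35270758 to 55349652 reads per library. Levels are given as CPM, counts on the per-million scale after TMM scaling of the library totals. The RNA carried fibroblast genes such as Col1a1, Vim and Fn1, while of 12 fibroblast markers Lum had 0 reads in all 14 libraries and Thy1 in 13. The summed level of the 12 markers was 7358 and 8115 CPM in the control, 2268 and 2483 CPM after 12 h without amino acids and 5440.5 and 5454 CPM after 12 h without glucose. Of 5 neural markers, Sox2 had 0 reads in all libraries, and their summed level, mostly of Nes, ran from 137 to 424 CPM and was lowest in the 12 h libraries of both starvations. Macrophage markers summed to 14.4 to 23.9 CPM, with Adgre1 at 0 in all libraries, endothelial markers to 4.21 to 23.5 CPM, and epithelial, skeletal muscle and erythroid markers to at most 6.24 CPM. The part of these shifts in the results below was not tested. In such bulk RNA, fewer cells of a type and less RNA per cell cannot be told apart.

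Translation factors took 3.22% and 3.07% of the reads of all kept transcripts in the control, 2.83% and 2.77% after 12 h without amino acids and 3.88% and 3.93% after 12 h without glucose. The 12 h libraries of the 2 starvations thus lay on opposite sides of the control. Eef1a1 and Eef2 alone gave 42.0% to 53.2% of the factor reads in each library. Without these 2 genes the share was 1.61% and 1.62% in the control, 1.59% and 1.60% after 12 h without amino acids and 1.83% and 1.84% after 12 h without glucose.

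Genes were called higher or lower at an adjusted p under 0.05 in edgeR's quasi-likelihood test, fitted to all 17696 tested genes. After 3 h without amino acids 26 of the 67 tested factors were higher than in the control and 16 lower, where 27.9% of all tested genes were higher and 32.1% lower. After 6 h the counts were 23 and 20 (background 32.3% and 33.3%), and after 12 h 17 and 31 (background 34.9% and 32.0%). Without glucose, 29 factors were higher and 7 lower at 3 h (background 20.3% and 23.1%), 36 and 12 at 6 h (background 23.3% and 24.2%), and 33 and 12 at 12 h (background 30.4% and 28.0%). The median log2 difference of the 67 factors was -0.22 after 12 h without amino acids and 0.13 after 12 h without glucose, against 0.057 and 0.0079 over all tested genes. Without the first 3 h glucose-starved library, the 7 lower factors of that time became 4.

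These counts depend on how libraries are scaled. Scaling to plain library totals moved the median log2 difference of all tested genes by -0.18 and -0.17 at 3 h without amino acids and without glucose, by -0.13 and -0.10 at 6 h and 12 h without glucose, by 0.13 at 12 h without amino acids and by 0.24 between the 12 h starvations. It turned the balance at 3 h, to 14 higher and 25 lower without amino acids and to 13 higher and 18 lower without glucose, and at 6 h without amino acids, to 18 higher and 25 lower. At 12 h the balance stayed on the same side, with 20 higher and 25 lower without amino acids and 25 higher and 18 lower without glucose, and at 6 h without glucose the counts were 22 and 14. The balance of all tested genes moved as well. With plain totals 34.2% of all calls and 35.9% of factor calls were higher at 3 h without amino acids. These shares were 44.4% and 41.9% at 6 h, and 59.5% and 44.4% at 12 h. Without glucose they were 25.7% and 41.9% at 3 h, 33.1% and 61.1% at 6 h, and 43.1% and 58.1% at 12 h. Values below rest on TMM scaling, and family counts that plain totals change in direction are marked where they stand. Background shares beside them are those of TMM scaling. With plain totals 3824 of the 17696 tested genes were higher and 7345 lower at 3 h without amino acids. The counts were 5179 and 6481 at 6 h, and 7133 and 4849 at 12 h. Without glucose they were 2235 and 6470, 2906 and 5875, and 4443 and 5865 at these times. Between the 12 h starvations 7644 were higher and 4035 lower without amino acids.

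**Figure D1:**
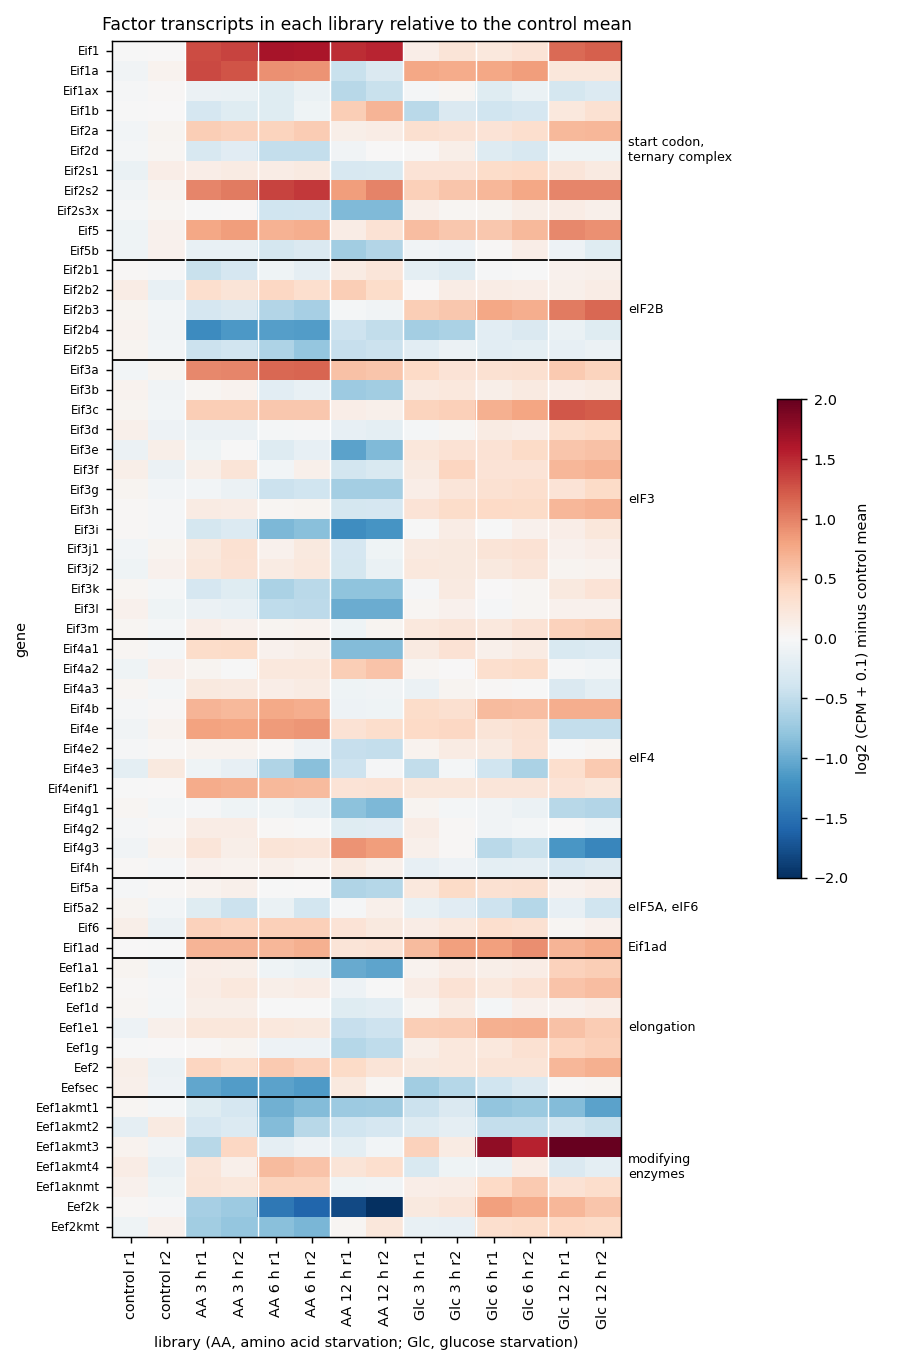
Levels of 60 factors with a mean of at least 1 CPM over all libraries, one line per gene and one column per library, drawn as the log2 difference from the mean of the 2 control libraries (pseudocount 0.1 CPM, colours limited to 2 in either direction). Genes are grouped by role; the eIF3 block is mostly below the control after 12 h without amino acids and above it after 12 h without glucose, and Eif1 and Eif2s2 are high in both 12 h groups.

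Stretches of the transcription start regions were read from RefSeq, which gives them for the mouse build GRCm38.p6, whereas the deposited counts rest on GRCm39. A window from 250 bases before to 50 bases after the start was found for 51 of the 82 genes, 47 of them tested; a gene can have several windows. A run of at least 8 pyrimidines (C or T, sense strand) within 25 bases on either side of the start occurred in 13 of the 47 tested factors (27.7%) and in 22.6% of 11679 tested genes with a window. The following stretches, 5′ to 3′ on the gene's strand with the pyrimidine run in capitals, cover those 25 bases before and after the start. They are examples from the 13 factors, shown because a terminal pyrimidine motif, where a leader has one, lies at the start. Eef1akmt2, Eef2k, Eif2b2, Eif2b5, Eif3k, Eif4e and Eif4enif1 also had a run and are not shown.
Eef1a1, chr9:78481700-78481749, minus strand: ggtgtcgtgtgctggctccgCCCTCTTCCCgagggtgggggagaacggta
Eef2, chr10:81176606-81176655, plus strand: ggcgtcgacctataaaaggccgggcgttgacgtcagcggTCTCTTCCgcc
Eif3f, chr7:108934390-108934439, plus strand: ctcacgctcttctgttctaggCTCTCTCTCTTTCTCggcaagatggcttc
Eif3l, chr15:79075198-79075247, plus strand: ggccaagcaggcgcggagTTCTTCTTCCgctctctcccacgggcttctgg
Eif3m, chr2:105017003-105017052, minus strand: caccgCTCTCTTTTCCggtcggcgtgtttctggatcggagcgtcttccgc
Eif2s3x, chrX:94212627-94212676, minus strand: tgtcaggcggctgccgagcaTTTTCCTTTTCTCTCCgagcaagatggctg
The runs of Eef1a1, Eif2s3x, Eif3f and Eif3l begin 5, 5, 4 and 7 bases before the start and reach across it, that of Eif3m begins 20 bases before the start and ends before it, and that of Eef2 begins 15 bases after it. Of the 13 factors with a run 4 were higher and 8 lower after 12 h without amino acids, and of the 34 without one 12 were higher and 13 lower. The background was 34.9% higher and 32.0% lower. After 12 h without amino acids Eef1a1, Eif2s3x, Eif3f and Eif3l of these 6 fell, Eef2 rose, and Eif3m stood at a log2 difference of -0.015.

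The E-box letters CACGTG, which read the same on both strands, occurred in windows of 14 of the 47 tested factors (29.8%) and of 11.2% of tested genes with a window. The letters TGATGNAA, sought on both strands as a core of amino acid response elements, occurred in 2 factors, Eef2k and Eif2s3x (4.26% against 2.85%), and TGACGTCA, the cyclic AMP response element, in 1, Eef2 (2.13% against 3.39%). A match is a description of letters and shows no binding. The following stretches of 30 bases hold CACGTG in capitals, for the eEF2 kinase, an eIF3 subunit, the cap-binding protein and its scaffold.
Eef2k, chr7:120842788-120842817, plus strand: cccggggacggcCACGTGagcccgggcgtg
Eif3a, chr19:60790654-60790683, minus strand: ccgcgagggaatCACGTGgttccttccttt
Eif4e, chr3:138527028-138527057, plus strand: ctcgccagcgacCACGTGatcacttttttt
Eif4e, chr3:138527192-138527221, plus strand: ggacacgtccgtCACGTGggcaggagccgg
Eif4g1, chr16:20672661-20672690, plus strand: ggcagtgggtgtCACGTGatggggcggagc
Eif4g1, chr16:20672730-20672759, plus strand: ctctgcgccggtCACGTGgggcgctggctg
These 4 genes did not move together. After 12 h without amino acids Eef2k and Eif4g1 fell by 1.94 and 0.86 on the log2 scale, and Eif3a and Eif4e rose by 0.57 and 0.32. Of the 14 factors with the letters 6 were higher and 6 lower in that comparison, and of the 33 without them 10 were higher and 15 lower. The background was 34.9% higher and 32.0% lower.

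Among the factors of start codon selection, Eif1 and Eif2s2 showed the largest rises at 6 h without amino acids and at 12 h without glucose. Eif1, which keeps the scanning ribosome from starting at poor start codons, stood at 406 and 411 CPM in the control. Without amino acids it was at 1009.8 and 1043 CPM after 3 h, 1277 and 1272 CPM after 6 h and 1132 and 1177 CPM after 12 h. Without glucose it was at 448 and 489 CPM, 471 and 496 CPM and 896 and 933 CPM at the same times. Both libraries of each amino acid group lay far above the control, whereas without glucose a level of this kind was reached at 12 h. The 6 h rise without amino acids was 3.12-fold (log2 fold change 1.64, SE 0.055, adjusted p = 1.39e-20, edgeR) and the 12 h rise without glucose 2.24-fold (log2 fold change 1.16, SE 0.054, adjusted p = 4.54e-17, edgeR). The starvations differed at 3 h by 1.13 (SE 0.054) and at 12 h by 0.34 (SE 0.054) on the log2 scale, with adjusted p of 2.25e-16 and 2.88e-06 in edgeR. The 3 h difference between glucose starvation and control, 0.20, lost its call without the second 3 h glucose-starved library, at 0.13. Of 50-base windows of the Eif1 transcript 31.6% occur in another annotated transcript, so its reads could be split with copies.

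**Figure D2:**
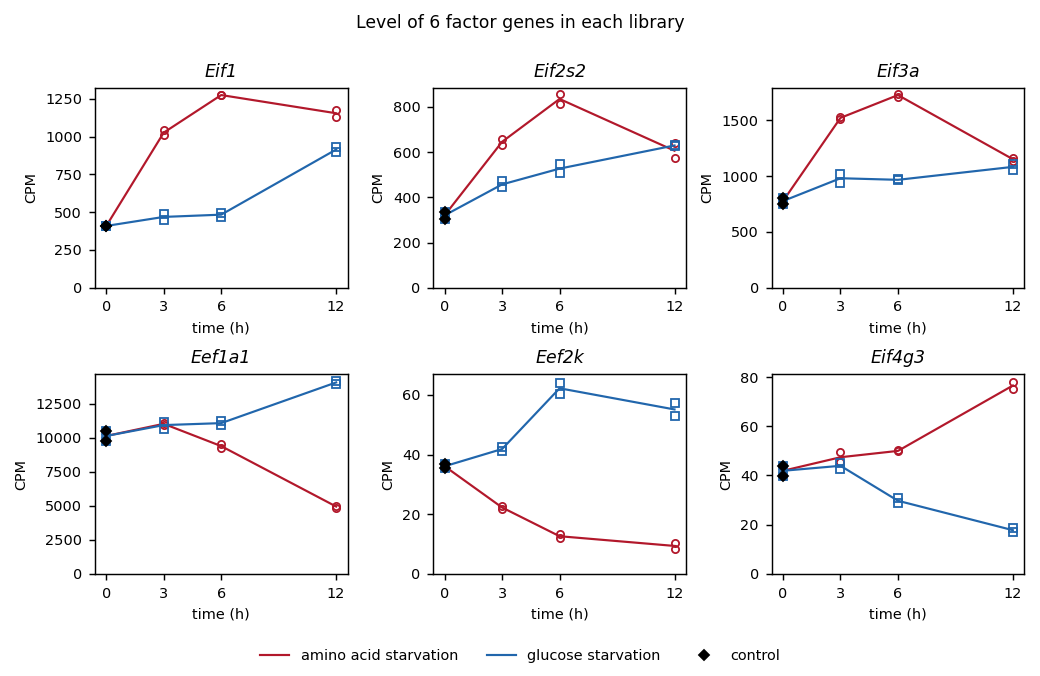
Levels in CPM, on linear axes from 0, of selected factors at 0, 3, 6 and 12 h, with one point per library, circles for amino acid and squares for glucose starvation, black diamonds for the control and lines through the group means. Eif1 lies between 1009.8 and 1277 CPM in the amino acid-starved libraries and at 896 and 933 CPM after 12 h without glucose, while Eef2k and Eif4g3 part in opposite directions.

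Eif2s2, the beta subunit of eIF2 that eIF5 contacts, was at 305 and 336 CPM in the control, 815 and 856 CPM after 6 h without amino acids and 572 and 640.0 CPM after 12 h. Its level after 12 h without glucose was 627 and 632 CPM. All 4 of these starved libraries at 12 h lay above both control libraries. The changes were log2 fold change 1.38, SE 0.062, adjusted p = 1.03e-17 at 6 h without amino acids and log2 fold change 0.97, SE 0.061, adjusted p = 3.96e-14 at 12 h without glucose in edgeR. The 12 h groups differed by -0.054 (SE 0.06; adjusted p = 0.443 in edgeR), a difference that turns to 0.18 with plain library totals. The other subunits of the trimer took other courses. Eif2s3x, the X-linked gamma subunit that binds GTP and the initiator tRNA, was at 443 and 465 CPM in the control and 246 and 247 CPM after 12 h without amino acids, a fall of 0.88 (SE 0.052; adjusted p = 4.47e-15 in edgeR), against 502 and 488 CPM after 12 h without glucose. Its Y-linked partner Eif2s3y had 0 reads in all 14 libraries. Eif2s1, the alpha subunit that the stress kinases phosphorylate, differed from the control by -0.32 and 0.20 after 12 h without amino acids and without glucose. Of the windows of Eif2s2 and Eif2s3x 27.8% and 36.2% are shared with other transcripts.

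The 2 genes for eIF1A, which binds the decoding site beside eIF1, moved apart. Eif1a was at 105 and 116 CPM in the control, 277 and 264 CPM after 3 h without amino acids, 208 and 207 CPM after 6 h and 81.2 and 90.7 CPM after 12 h. Its early rise (log2 fold change 1.29, SE 0.06, adjusted p = 3.18e-17, edgeR) thus gave way to a level below the control (log2 fold change -0.36, SE 0.06, adjusted p = 4.75e-06, edgeR). Glucose-starved cells held it at 189 and 185 CPM at 3 h, 189 and 197 CPM at 6 h and 129 and 129 CPM at 12 h, above both control libraries at each time. Eif1ax, its X-linked counterpart, was at 181 and 187 CPM in the control and 170.3 and 168 CPM after 3 h without amino acids, where the groups differed by -0.12 (SE 0.058; adjusted p = 0.0668 in edgeR). Per length, Eif1ax made up 48.8% and 47.2% of the sum of both genes in the control, 25.4% and 26.1% after 3 h without amino acids and 46.2% and 45.3% after 12 h. Eif1b, a second gene for eIF1, made up 6.62% and 6.67% of the sum of Eif1 and Eif1b per length in the control and 1.89% and 2.11% after 6 h without amino acids; it was at 22.5 and 23.0 CPM in the control and 32.0 and 36.5 CPM after 12 h without amino acids (log2 fold change 0.59, SE 0.091, adjusted p = 1.59e-06, edgeR).

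Eif5, which triggers the GTP hydrolysis of eIF2, was higher than the control at all 3 times of both starvations, by 0.81, 0.71 and 0.22 on the log2 scale without amino acids and 0.58, 0.59 and 0.94 without glucose. Eif5b, which joins the large ribosomal subunit, was lower by 0.64 after 12 h without amino acids; 1643 of its exon bases lie opposite those of Rev1, and whether counting used strand is not given in the sources used here. Of the 11 tested genes of this role, 5 were higher and 5 lower after 12 h without amino acids (background 34.9% and 32.0%). After 12 h without glucose 8 were higher and 2 lower (background 30.4% and 28.0%). Plain totals give 5 and 5, and 4 and 3.

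The exchange factor eIF2B has 5 subunits, of which the alpha, beta and delta subunits form the core that senses phosphorylated eIF2 and the gamma and epsilon subunits the catalytic part. Their mRNAs did not keep step. Eif2b4 (delta) was at 49.6 and 44.6 CPM in the control, 19.6 and 21.1 CPM after 3 h, 21.8 and 21.6 CPM after 6 h and 35.3 and 33.3 CPM after 12 h without amino acids. In glucose starvation the level was 29.4 and 30.2 CPM after 3 h and 42.8 and 39.8 CPM after 12 h. The 3 h fall without amino acids was 1.21 on the log2 scale (SE 0.079; adjusted p = 8.26e-14 in edgeR), and the level was partly regained by 12 h. The 12 h difference without glucose, -0.19, lost its call without the first control library (-0.11) or the second 12 h glucose-starved library (-0.13). Its exons overlap 204 bases of Snx17 on the other strand.

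Eif2b3 (gamma) moved in opposite directions in the 2 starvations. It was at 28.5 and 26.7 CPM in the control, 18.3 and 17.4 CPM after 6 h without amino acids and 47.0 and 45.5 CPM after 6 h without glucose. At 12 h without glucose it stood at 56.6 and 61.2 CPM, above both control libraries (log2 fold change 1.09, SE 0.073, adjusted p = 1.78e-13, edgeR), and after 12 h without amino acids at 26.9 and 26.4 CPM. The starvations differed by -1.38 at 6 h (SE 0.076; adjusted p = 1.96e-15 in edgeR) and by -1.14 at 12 h. Eif2b5 (epsilon, the catalytic subunit) was at 90.1 and 84.3 CPM in the control and 56.6 and 50.9 CPM after 6 h without amino acids, a fall of 0.70 (SE 0.063; adjusted p = 6.25e-11 in edgeR). Eif2b2 (beta) was at 54.3 and 44.4 CPM in the control and 69.2 and 63.5 CPM after 12 h without amino acids, higher by 0.43. Eif2b1 (alpha) was at 55.6 and 53.4 CPM in the control and 40.2 and 43.4 CPM after 3 h without amino acids, lower by 0.38. At 3 h without amino acids 4 of the 5 genes were thus lower and 1 higher (background 32.1% and 27.9%). The higher gene was Eif2b2, whose 3 h call was lost without the second control library (0.15).

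**Figure D3:**
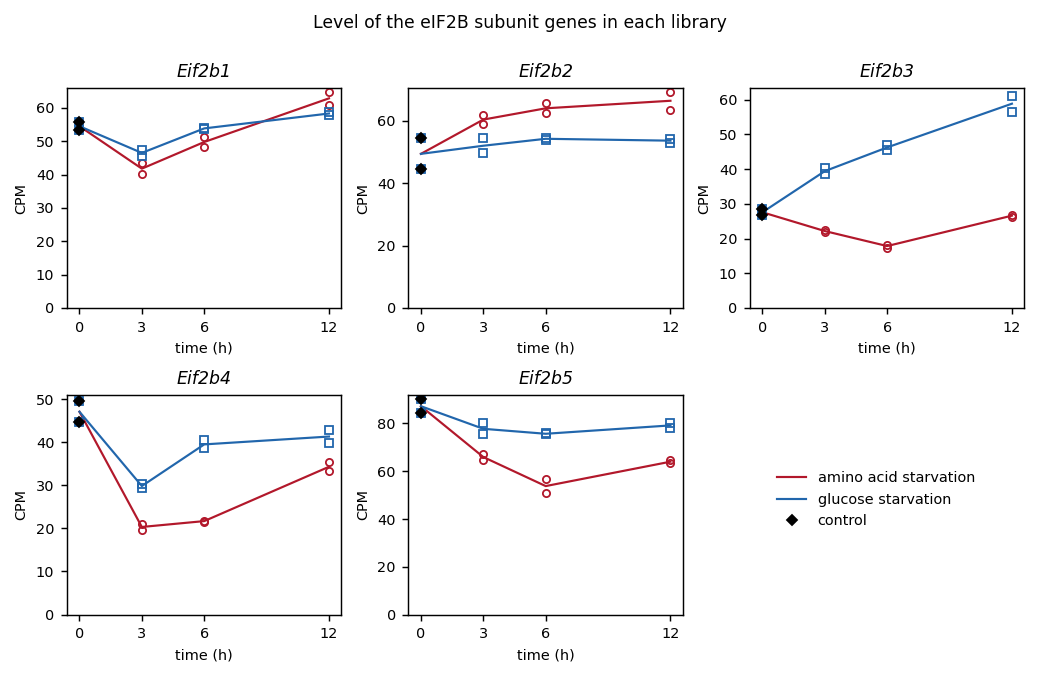
Levels in CPM, on linear axes from 0, of the 5 eIF2B subunit mRNAs at 0, 3, 6 and 12 h, with one point per library, circles for amino acid and squares for glucose starvation, black diamonds for the control and lines through the group means. Eif2b3 lies below the control at 3 h and 6 h without amino acids and above it at each time without glucose, and Eif2b4 has its lowest mean at 3 h in both starvations.

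The genes that act on eIF2 were followed beside them. Ppp1r15a, the inducible subunit that directs a phosphatase to eIF2, was at 40.0 and 35.2 CPM in the control, 502 and 474 CPM after 3 h without amino acids and 109 and 109 CPM after 3 h without glucose. At 12 h it was at 389 and 376 CPM and 399 and 396 CPM. The early difference between the starvations (2.16 on the log2 scale, SE 0.059, adjusted p = 5.96e-22 in edgeR) had become -0.056 by 12 h (SE 0.055). Ppp1r15b, the constitutive subunit, rose by 1.62 after 3 h without amino acids and by 1.19 after 12 h. Of the 4 eIF2 kinases, Eif2ak4 (GCN2) differed from the control by 0.29 after 3 h without amino acids, Eif2ak3 (PERK) rose by 0.66 after 12 h without glucose, and Eif2ak2 (PKR) fell at 6 h by 1.04 without amino acids and 1.26 without glucose. In all, 3 of these 6 genes were higher and 2 lower after 12 h without amino acids, and 3 higher and 1 lower after 12 h without glucose, where plain totals give 2 higher and 3 lower; the background was 34.9% higher and 32.0% lower, and 30.4% and 28.0%.

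eIF3 is the largest initiation factor, a scaffold that holds the small subunit together with eIF1, eIF2, eIF5 and the cap complex. Most of its 14 genes rose without glucose and most fell after 12 h without amino acids. The 14 include Eif3j1 and Eif3j2, which these counts cannot tell apart, so these 2 are not independent. Without glucose 10, 11 and 11 of the 14 were higher at 3, 6 and 12 h and 0 lower. The background was 20.3%, 23.3% and 30.4% higher, and 23.1%, 24.2% and 28.0% lower. With plain totals 3, 5 and 8 were higher, and 1 was lower at 3 h. Without amino acids 5 were higher and 3 lower at 3 h (background 27.9% and 32.1%). The counts were 3 and 6 at 6 h (background 32.3% and 33.3%), and 1 and 11 at 12 h (background 34.9% and 32.0%). Plain totals turn the 3 h balance without amino acids to 2 higher and 7 lower, and give 2 and 8 at 12 h. With that scaling 3824 of the 17696 tested genes were higher and 7345 lower at 3 h, and 7133 and 4849 at 12 h. The median log2 difference of the 14 genes was -0.34 at 12 h without amino acids and 0.35 at 12 h without glucose. Between the 12 h starvations 13 of 14 were lower without amino acids and 0 higher (background 31.6% lower and 32.5% higher), with a median of -1.01; plain totals give 11 lower and 1 higher. The gene not called was Eif3a, with a difference of 0.088 (SE 0.054; adjusted p = 0.155 in edgeR).

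Eif3a, the subunit that with Eif3b nucleates the complex, was the 1 eIF3 gene called higher after 12 h without amino acids; at 3 h and 6 h it was not alone, and Eif3c was higher by 0.49 and 0.54. It was at 749 and 803 CPM in the control, 1514 and 1528 CPM after 3 h, 1712 and 1739 CPM after 6 h and 1163 and 1139 CPM after 12 h, with all 6 starved libraries above both control libraries (log2 fold change 1.15, SE 0.055, adjusted p = 4.34e-17 at 6 h, edgeR). Glucose-starved libraries had it at 1020.4 and 941 CPM after 3 h and 1112 and 1052 CPM after 12 h. Eif3i, a subunit of the module with Eif3b and Eif3g, was at 166 and 161 CPM in the control, 128 and 135 CPM after 3 h, 87.4 and 91.0 CPM after 6 h and 68.8 and 72.0 CPM after 12 h without amino acids. The level was below the control at each time, by 1.21 at 12 h (SE 0.061; adjusted p = 1.14e-16 in edgeR), whereas without glucose it was at 178 and 191 CPM after 12 h. Eif3e, which is also known as Int6, was at 269 and 313 CPM in the control, 137 and 158 CPM after 12 h without amino acids and 427 and 437 CPM after 12 h without glucose, so that the 12 h groups lay on opposite sides of the control (log2 fold change -1.55, SE 0.07, adjusted p = 5.82e-17 between the starvations, edgeR). Eif3c, an N-terminal anchor for eIF1 and eIF5, was at 446 and 411 CPM in the control and 471 and 459 CPM after 12 h without amino acids, where the difference was 0.12 (adjusted p = 0.0506 in edgeR). At 12 h without glucose it was at 1016 and 988 CPM, the largest rise of the 14 genes in that comparison (log2 fold change 1.23, SE 0.053, adjusted p = 8.88e-18, edgeR). Plain totals, a stricter filter on low counts, or a fit without the first control library bring the count of eIF3 genes that were higher after 12 h without amino acids from 1 to 2.

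**Figure D4:**
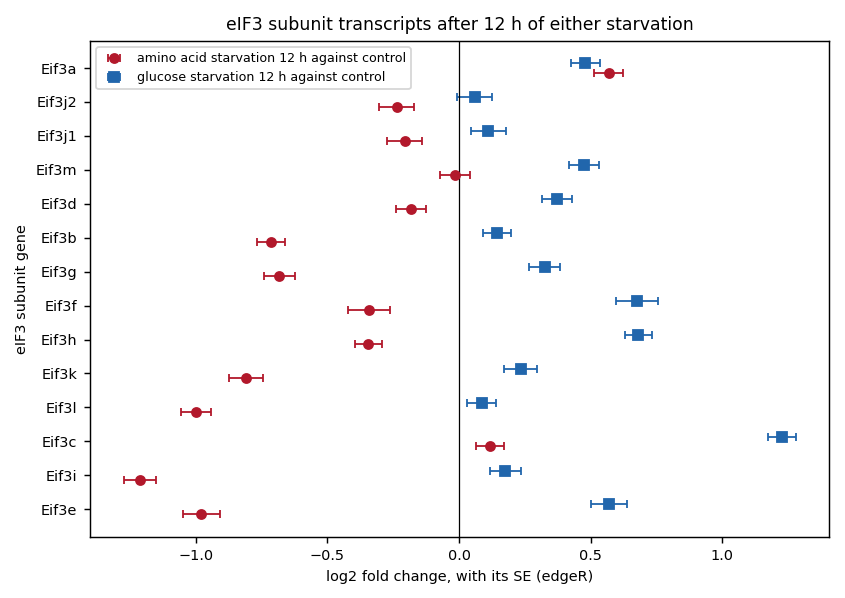
The 14 eIF3 genes on the vertical axis and their log2 fold changes against the control by edgeR on the horizontal axis, with bars of 1 SE on either side, after 12 h of amino acid starvation (circles) and of glucose starvation (squares). After 12 h without amino acids 11 genes were called lower and Eif3a higher (8 lower and 2 higher with plain totals), and after 12 h without glucose 11 were called higher (8 with plain totals). Under TMM scaling 32.0% of all tested genes were lower and 34.9% higher without amino acids, and 30.4% were higher without glucose. With plain totals 4849 of the 17696 tested genes were lower and 7133 higher without amino acids, and 4443 were higher without glucose.

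On a scale per length, computed here as CPM per kilobase of the counted transcript (RPKM), the eIF3 genes ran from 29.5 to 243 in the first control library, with Eif3j2 lowest and Eif3h highest. Eif3h was the highest in both control and all 6 glucose-starved libraries, and Eif3a in all 6 amino acid-starved libraries. The ratio of the highest to the lowest gene was 7.18 to 8.23 in the control, 7.80 to 9.98 without amino acids and 8.10 to 11.8 without glucose. Eif3j1 and Eif3j2, near-identical copies of the subunit that loosens mRNA from the scanning ribosome, each held close to the same level: Eif3j2 made up 48.6% to 51.0% of their sum per length in all 14 libraries. Of its 50-base windows 91.8% occur in another transcript, so the 2 genes cannot be told apart by these counts. Eif3d overlaps an antisense gene over 2151 exon bases.

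The eIF4 genes, grouped here by symbol, shifted between paralogs. Many encode factors that bind the cap or open the leader, but Eif4a3, Eif4a3l2 and Eif4enif1 are counted among them too. At 3 h without amino acids 7 of 13 tested genes were higher and 0 lower (background 27.9% and 32.1%). At 6 h 6 were higher and 1 lower (background 32.3% and 33.3%). Plain totals give 4 and 2 at 3 h, and 5 and 2 at 6 h. At 12 h the counts were 5 higher and 4 lower, near the background of 34.9% and 32.0%. Without glucose they were 4 and 1 at 3 h (background 20.3% and 23.1%) and 6 and 3 at 6 h (background 23.3% and 24.2%). At 12 h without glucose 3 were higher and 6 lower (background 30.4% and 28.0%). Plain totals turn the 3 h counts without glucose to 2 and 5 and the 6 h counts to 3 and 5. With that scaling 2235 of the 17696 tested genes were higher and 6470 lower at 3 h, and 2906 and 5875 at 6 h.

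Eif4g3, a scaffold paralog also called eIF4GII, separated the starvations most among the eIF4 genes. It was at 39.8 and 44.0 CPM in the control, 50.2 and 49.7 CPM after 6 h and 78.0 and 75.1 CPM after 12 h without amino acids. Without glucose it was at 45.1 and 42.8 CPM after 3 h, 28.8 and 30.7 CPM after 6 h and 18.7 and 16.9 CPM after 12 h. The 12 h groups lay on opposite sides of the control and 4.29-fold apart (log2 fold change 2.10, SE 0.077, adjusted p = 1.19e-19, edgeR). Eif4g1, the main scaffold that joins the cap-binding protein, the helicase and eIF3, was at 1086 and 1028 CPM in the control, 596 and 566 CPM after 12 h without amino acids and 721 and 703 CPM after 12 h without glucose, lower than the control in both (log2 fold change -0.86, SE 0.054, adjusted p = 1.95e-14 and log2 fold change -0.57, SE 0.054, adjusted p = 2.79e-10 in edgeR). Per length, Eif4g3 made up 2.39% and 2.78% of the sum of both scaffolds in the control, 8.05% and 8.15% after 12 h without amino acids and 1.70% and 1.58% after 12 h without glucose. Eif4g2, a related protein that lacks the cap-binding region, was at 1029.5 and 1068 CPM in the control and 891 and 900.1 CPM and 1052 and 1009 CPM after 12 h of the 2 starvations, and its difference between them turns from -0.20 to 0.036 with plain totals.

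The helicase genes showed a like shift. Eif4a1, the main helicase, was at 1099 and 1035 CPM in the control, 583 and 582 CPM after 12 h without amino acids and 862 and 878 CPM after 12 h without glucose. Eif4a2, its close paralog, was at 313 and 351 CPM, 466 and 494 CPM and 327 and 318 CPM in the same groups. After 12 h without amino acids Eif4a1 thus fell (log2 fold change -0.87, SE 0.053, adjusted p = 1.04e-14, edgeR) while Eif4a2 rose (log2 fold change 0.53, SE 0.056, adjusted p = 1.54e-09, edgeR). Per length, Eif4a2 was 15.7% and 18.2% of the pair in the control, 34.4% and 35.7% after 12 h without amino acids and 19.9% and 19.2% after 12 h without glucose. Of the windows of Eif4a1 65.3% and of Eif4a2 11.5% occur in other transcripts, and both genes hold small nucleolar RNAs whose reads the counting could have added.

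**Figure D5:**
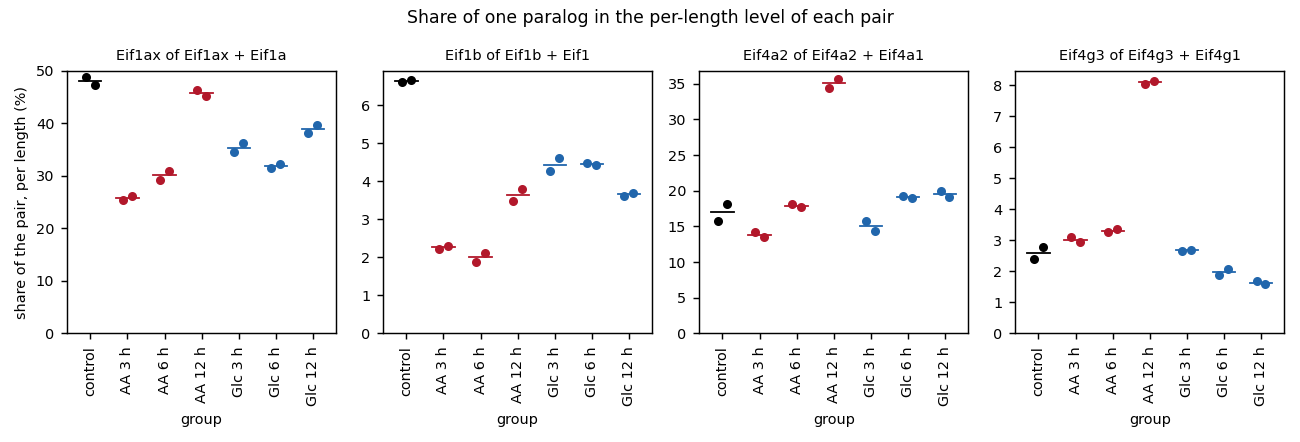
Share in percent of one gene in the per-length sum of a paralog pair, one point per library, in the 7 groups, with a short line at each group mean. Eif4a2 reaches 34.4% and 35.7% of its pair after 12 h without amino acids against 15.7% and 18.2% in the control, and Eif1ax is lowest after 3 h without amino acids.

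Eif4e, the cap-binding protein, was at 139 and 152 CPM in the control, 253 and 250.3 CPM after 3 h, 262 and 269 CPM after 6 h and 178 and 185 CPM after 12 h without amino acids. In the glucose series it stood at 192 and 194 CPM after 3 h and 104 and 105 CPM after 12 h, below the control at the later time (log2 fold change -0.48, SE 0.055, adjusted p = 1.03e-08, edgeR). The 12 h starvations differed by 0.80 (SE 0.054; adjusted p = 1.49e-13 in edgeR). Eif4e2, a cap-binding homolog known for repression, was at 87.3 and 89.3 CPM in the control and 64.4 and 63.7 CPM after 12 h without amino acids (log2 fold change -0.46, SE 0.06, adjusted p = 7.25e-08, edgeR). Eif4e3, another homolog, was at 5.69 and 7.53 CPM in the control and 4.28 and 3.63 CPM after 6 h without amino acids (log2 fold change -0.75, SE 0.18, adjusted p = 4.81e-04, edgeR), and Eif4e1b, the oocyte form, had 0 reads in all libraries. Eif4b, which stimulates the helicase, was higher by 0.74 after 6 h without amino acids and 0.72 after 12 h without glucose, and differed by -0.096 after 12 h without amino acids.

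Genes that regulate the cap complex were counted beside it. Eif4ebp1, the mTORC1 substrate that sequesters Eif4e, was at 92.2 and 80.8 CPM in the control, 297 and 294 CPM after 3 h without amino acids and 204 and 245 CPM after 3 h without glucose, and after 12 h at 129 and 129 CPM and 299 and 302 CPM. It was above the control in each starved group, and the 12 h starvations differed by -1.22 (SE 0.067; adjusted p = 1.33e-15 in edgeR). Mknk2, a kinase that phosphorylates eIF4E, fell by 1.52 after 12 h without glucose and rose by 0.36 after 12 h without amino acids. Pdcd4, which inhibits the helicase, rose by 1.52 and 1.01 in these groups. Of the 11 genes of this list 8 were higher and 3 lower after 12 h without amino acids (background 34.9% and 32.0%). In the 12 h glucose group 5 were higher and 3 lower, near the background of 30.4% and 28.0%. Of 6 poly(A)-binding proteins and their partners, which link the tail of the mRNA to eIF4G, 5 were higher and 0 lower after 6 h without amino acids (background 32.3% and 33.3%), and 4 and 0 after 12 h without glucose (background 30.4% and 28.0%). Pabpc1, the main cytoplasmic form, differed between the 12 h starvations by -0.81, lower without amino acids (SE 0.051; adjusted p = 2.91e-14 in edgeR), and Paip2, an inhibitor of Pabpc1, by 0.58.

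Eif5a, which helps the ribosome through poorly reactive peptide sequences and carries the amino acid hypusine, was at 1072 and 1117 CPM in the control, 723 and 736 CPM after 12 h without amino acids and 1158 and 1196 CPM after 12 h without glucose. It fell without amino acids (log2 fold change -0.59, SE 0.054, adjusted p = 1.09e-10, edgeR), where both libraries lay below those of every other group. Eif5a2, its minor paralog, was at 19.1 and 17.6 CPM in the control and 13.8 and 12.3 CPM after 6 h without glucose (log2 fold change -0.50, SE 0.11, adjusted p = 4.56e-04, edgeR), and made up at most 0.758% of the pair per length. Eif6, which keeps the ribosomal subunits apart, was higher by 0.44 and 0.47 after 3 h and 6 h without amino acids. Of 9 genes that make hypusine on eIF5A or diphthamide on eEF2, 6 were higher and 1 lower after 12 h without glucose (background 30.4% and 28.0%), and 1 and 3 after 12 h without amino acids (background 34.9% and 32.0%). Dph1 and Dph7, of the first and a late step of diphthamide synthesis, rose by 0.90 and 0.59 without glucose and fell by 0.55 and 0.81 without amino acids at 12 h. Dhps, the first enzyme of hypusine synthesis, rose by 0.68 without glucose and differed by -0.14 without amino acids.

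Eef1a1 and Eef2 were the most abundant of these mRNAs in the control. Per length, Eef1a1 stood at 5856 and 5444 RPKM in the control, Eef2 at 1531 and 1304 RPKM, Eif5a at 746 and 777 RPKM, Eef1g at 653 and 654 RPKM and Eif4a1 at 619 and 584 RPKM. Eef1a1, which delivers aminoacyl-tRNA, was at 10506 and 9767 CPM in the control, 11087 and 10969 CPM after 3 h, 9546 and 9238 CPM after 6 h and 5025 and 4882 CPM after 12 h without amino acids. In glucose starvation it stood at 10676 and 11195 CPM after 3 h, 10947 and 11212 CPM after 6 h and 13939 and 14199 CPM after 12 h. The 12 h libraries lay below the control without amino acids (log2 fold change -1.03, SE 0.053, adjusted p = 2.11e-16, edgeR) and above it without glucose (log2 fold change 0.47, SE 0.053, adjusted p = 7.76e-09, edgeR), while the differences at 3 h and 6 h were at most 0.13 in size, and those called, at 3 h without amino acids and 6 h without glucose, turn to -0.055 and -0.0031 with plain totals. Of its windows 59.2% occur in other transcripts, so that part of its reads could be assigned elsewhere. Its muscle and neuron paralog Eef1a2 had 0 reads in all libraries.

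Eef2, the translocase, rose where Eef1a1 fell. It was at 4728 and 4027 CPM in the control, 6238 and 5991 CPM after 6 h and 5709 and 5218 CPM after 12 h without amino acids, and at 6946 and 7149.8 CPM after 12 h without glucose. Both libraries of these groups lay above the control, with log2 fold change 0.32, SE 0.062, adjusted p = 4.40e-05 at 12 h without amino acids and log2 fold change 0.69, SE 0.062, adjusted p = 1.13e-10 at 12 h without glucose in edgeR. Eef1b2, Eef1d and Eef1g, which encode subunits of the exchange complex that recharges eEF1A, differed by -0.055, -0.23 and -0.53 after 12 h without amino acids and by 0.59, 0.10 and 0.46 after 12 h without glucose. Eefsec, the factor for selenocysteine, was at 31.4 and 27.2 CPM in the control, 14.1 and 13.4 CPM after 3 h, 13.8 and 13.2 CPM after 6 h and 33.4 and 29.9 CPM after 12 h without amino acids. It fell at 3 h (log2 fold change -1.09, SE 0.093, adjusted p = 3.21e-11, edgeR) and was back near the control by 12 h (log2 fold change 0.11, SE 0.087, adjusted p = 0.265, edgeR). Its level without glucose was 18.0 and 19.6 CPM after 3 h and 29.5 and 30.0 CPM after 12 h; it shares 308 exon bases with an antisense gene. Of the 7 tested elongation factors 1 was higher and 4 were lower after 12 h without amino acids (background 34.9% and 32.0%; 2 and 3 with plain totals). After 12 h without glucose 5 were higher and 0 lower (background 30.4% and 28.0%), also with plain totals. Between the 12 h starvations 6 were lower without amino acids and 0 higher (background 31.6% and 32.5%), or 4 and 1 with plain totals.

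Eef2k, the kinase that stops eEF2, showed the widest gap between the 12 h starvations among the factors with at least 8 CPM in every library. It was at 36.7 and 35.5 CPM in the control, 22.7 and 21.8 CPM after 3 h, 13.3 and 12.0 CPM after 6 h and 10.3 and 8.50 CPM after 12 h without amino acids. Without glucose it was at 41.1 and 42.6 CPM after 3 h, 64.1 and 60.3 CPM after 6 h and 57.2 and 53.0 CPM after 12 h. The level was below the control at each time without amino acids, at 0.260 of the control at 12 h (log2 fold change -1.94, SE 0.089, adjusted p = 1.34e-17, edgeR), and lay above the control at 6 h and 12 h without glucose (log2 fold change 0.61, SE 0.08, adjusted p = 1.34e-07, edgeR). The 12 h starvations differed by -2.56 on the log2 scale (SE 0.089; adjusted p = 3.24e-20 in edgeR). The 3 h difference without glucose, 0.21, lost its call when any 1 library of that group or of the control was left out, at 0.18 to 0.24.

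Of the 6 methyltransferases of the elongation factors 1 was higher and 2 were lower after 12 h without amino acids (background 34.9% and 32.0%; 2 and 1 with plain totals), and 3 and 2 after 12 h without glucose (background 30.4% and 28.0%; 3 and 3 with plain totals). Eef2kmt, which methylates eEF2, was at 11.1 and 12.6 CPM in the control, 6.61 and 6.20 CPM after 6 h and 12.2 and 13.9 CPM after 12 h without amino acids; it fell at 6 h (log2 fold change -0.89, SE 0.11, adjusted p = 6.73e-08, edgeR) and differed by 0.14 at 12 h. It shares 472 exon bases with Alg1 on the other strand. Eef1akmt1, which methylates a lysine of eEF1A, was at 19.9 and 19.0 CPM in the control, 11.6 and 11.9 CPM after 12 h without amino acids and 10.6 and 9.19 CPM after 12 h without glucose, lower in both (log2 fold change -0.72, SE 0.10, adjusted p = 3.07e-07 and log2 fold change -0.96, SE 0.10, adjusted p = 3.55e-09 in edgeR). Eef1akmt3, named here after its values were seen, was at 0.829 and 0.745 CPM in the control, 2.93 and 2.48 CPM after 6 h and 4.70 and 4.30 CPM after 12 h without glucose (log2 fold change 2.51, SE 0.29, adjusted p = 1.49e-08, edgeR), and at 0.671 and 0.755 CPM after 12 h without amino acids. It shares 100 exon bases with Mettl1 on the other strand, and this level rests on 38 and 34 reads in the control.

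The starvations were also compared directly. At 3 h 16 of the 67 factors were higher without amino acids than without glucose and 17 lower (background 26.7% and 27.7%). At 6 h the counts were 14 and 29 (background 31.5% and 32.3%), and at 12 h 12 and 41 (background 32.5% and 31.6%). The 12 h median log2 difference of the factors was -0.45, against 0.028 over all tested genes. Plain totals give 18 higher and 31 lower at 12 h, where 7644 of the 17696 tested genes were higher and 4035 lower. The 12 h factors that were higher without amino acids included Eif4g3, Eif4e, Eif4a2 and Eif1, and those lower Eef2k, Eif3e, Eef1a1 and Eif3i. From 3 h to 12 h without amino acids 11 factors rose and 40 fell (background 35.5% and 32.9%; 19 and 27 with plain totals), and without glucose 28 rose and 10 fell (background 31.8% and 25.5%). The change from 3 h to 12 h differed between the starvations for 9 factors in the upward and 42 in the downward direction for amino acids, where 21.7% and 25.7% of all tested genes did, or 15 and 29 with plain totals. All 14 eIF3 genes were among the latter, 11 with plain totals, with a median of -0.72. Over all 17696 tested genes plain totals give 5908 upward and 3037 downward in this difference. For the change from 3 h to 12 h without amino acids they give 8521 that rose and 4018 that fell.

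Some members were hardly present. Of the 15 untested genes, Eef1a2, Eif2c5, Eif2s3y and Eif4e1b had 0 reads in all libraries, Eif4a3l1 had 0 to 8 reads and 10 Eif1ad copies had 0 to 9 reads. The 6 tested Eif1ad copies, relatives of the start codon factor eIF1A, stayed below 1 CPM in each library, and 4 of them share at least 77.9% of their windows with other transcripts. Eif1ad8 was called higher after 3 h without amino acids on 4 and 30 reads against 3 and 4 in the control, so that most of the reads behind the call came from 1 library. The single-copy gene Eif1ad, by contrast, was at 72.4 and 72.0 CPM in the control, 128 and 137 CPM after 6 h without glucose and 115 and 118 CPM after 6 h without amino acids (log2 fold change 0.88, SE 0.061, adjusted p = 1.08e-12 and log2 fold change 0.69, SE 0.061, adjusted p = 4.03e-11 in edgeR); it shares 428 exon bases with Banf1 on the other strand.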

How the data were processed

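The authors' deposited table holds raw read counts per transcript for all 14 libraries. Per the submitters' processing notes, which name STAR and bedtools, the build was GRCm39; versions, annotation, counting rule and use of strand are not given in the sources used here. Of 67457 lines, 58 named no gene, held 0% of reads and were left out. For each gene the transcript with the highest sum over libraries was kept (30 of 82 factors had several). Library totals over the kept transcripts were 35270758 to 55349652 reads. Each SE was computed as the size of the log2 fold change divided by the square root of the F statistic of edgeR's test. It rests on a spread pooled over the groups and shared in part across genes, not on the 2 libraries of a group alone.

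In R 4.3.3 with edgeR 4.0.16, counts were filtered with filterByExpr (17696 genes), scaled with TMM, and fitted with a robust quasi-likelihood model of 7 group means (7 residual degrees of freedom, spread pooled over groups, biological coefficient of variation 5.78%). The 12 two-sided comparisons were adjusted by Benjamini-Hochberg over all tested genes, threshold 0.05. CPM use TMM-scaled totals; per-length values divide by transcript length. Alternatives were RLE size factors, plain library totals, no filter, a stricter filter, sums of transcripts, the compared groups alone, the replicate number as a block, DESeq2 1.42.0, leaving out each library, and the longest transcript, the last chosen after seeing the data. On simulated counts for 12 h without amino acids against control (16037 genes), recovery was 70% of 60 genes at a log2 change of 0.5, 85% of 60 at 1 and 95.2% of 63 at 2, with 5 false among 158 calls. The simulation fitted only the libraries of these 2 groups, gave all genes the same spread and changed far fewer genes than were called. It therefore does not give the recovery or false calls of the reported fit of 7 groups.

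The factors and lists were chosen with earlier results of these data known. Values by library are given for the 2 highest and 2 lowest called factors of each comparison (mean log2 CPM 3 or more), for paralog pairs, eIF2B and Eef2k; of each pathway list up to 3 called genes with the smallest p in a comparison may be named, and a further few genes are named with single values. Overlaps and shared 50-base windows come from GENCODE vM21 (GRCm38), in which all 82 were found; start regions come from RefSeq.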

Additional observations from a re-analysis of the deposited data

Results flagged for a closer look

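Of the 67 tested factors 17 changed in opposite directions from 3 h to 12 h in the 2 starvations, with both changes and the difference between them past the threshold in edgeR; 16 of them fell without amino acids and 1 rose. With plain library totals there were 13, without Eif3a, Eif3c, Eif3m, Eef1b2, Eef1aknmt and Eif2a, and with Eif2s3x and Eif3i added. With RLE size factors there were 15, without Eif3a, Eif3g, Eif3k and Eef1aknmt, and with Eif2d and Eif2s2 added. How many of all tested genes met the same conditions was not counted, so the 17 of 67 stand without a background. Of all tested genes 35.5% rose and 32.9% fell from 3 h to 12 h without amino acids, and 31.8% rose and 25.5% fell without glucose. Of the 17, the 6 described first are those among the 34 factors that the naming rule selects. The differences below are the amino acid change minus the glucose change on the log2 scale. The helicase scaffold gene Eif4g3 rose by 0.69 without amino acids and fell by 1.30 without glucose, a difference of 1.99 (SE 0.11). The kinase gene Eef2k fell by 1.25 and rose by 0.40, a difference of -1.64 (SE 0.12). Eef1a1 fell by 1.15 and rose by 0.36, a difference of -1.52 (SE 0.075). The eIF3 genes Eif3e, Eif3c and Eif3a gave differences of -1.24, -1.14 and -0.55. Of these, the rise of Eif3a without glucose, 0.14, is small and lost its call under 7 alternatives, among them leaving out the second 3 h or the first 12 h glucose-starved library (0.09 and 0.10). Of the other 11, named after their values were seen, Eif4b had a difference of -1.14 (SE 0.07), Eif5 of -0.95, Eif3f of -0.89, Eif3h of -0.86, Eef1g of -0.86, Eif3g of -0.73, Eif2a of -0.70, Eif3k of -0.68, Eef1b2 of -0.60, Eef1aknmt of -0.50 and Eif3m of -0.38.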

How the results depend on the processing

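Plain library totals moved the results most. The factors higher and lower became 14 and 25 at 3 h without amino acids, 13 and 18 at 3 h without glucose, and 22 higher at 6 h without glucose; 19 were higher from 3 h to 12 h without amino acids, and 15 in the difference of these changes. Of eIF3 genes 2 were higher at 12 h without amino acids and 1 against 12 h without glucose, and of elongation factors 2 and 1. Signs turned for Eef1a1 (-0.055), Eif4a2 (-0.15) and Eif4g2 (-0.026) at 3 h without amino acids, Eif4a2 (-0.14) and Eif4g1 (-0.16) at 3 h and Eef1a1 (-0.0031) at 6 h without glucose, Eif2s2 (0.18) and Eif4g2 (0.036) between the 12 h starvations, Eif2s2 (0.22) and Eif2b5 (0.27) from 3 h to 12 h without amino acids, and Eif4g1 (0.022) in the difference of changes. The longest transcript turned Eif4e2 at 6 h without amino acids (0.15) and between the starvations at 3 h (0.15) and 6 h (0.0086). In the fit on only the groups compared, 4 factors were lower at 3 h without glucose; leaving out 1 library gave 4 to 7 there and 1 to 2 eIF3 genes higher at 12 h without amino acids, and a stricter filter gave 2. The causes were not tested. Same-numbered libraries of different groups did not deviate together over all tested genes (21 pairs of groups, r from -0.035 to 0.054). Such a check cannot exclude a weak pairing or one limited to some genes. With the replicate number as a block 370 values of named factors stayed the same and 14 gained a call. In that fit 2 eIF3 genes were higher at 12 h without amino acids. The factors higher numbered 27, 25 and 18 without amino acids and 30, 36 and 34 without glucose at 3, 6 and 12 h. Over all alternatives and named factors, 4660 values kept their side of the threshold, with the same sign where called and within 1 SE where not called. A call was lost by 216 values and gained by 127, and 103 values without a call moved by more than 1 SE. Of values called in at least 1 of the 2 fits compared, 14 turned sign. Sign changes of values called in neither fit were not counted apart. Depth limits the Eif1ad copies and other genes under 1 CPM.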

Other observations

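The 11 nuclear genes for mitochondrial translation factors were mostly lower early in amino acid starvation. At 3 h 9 were lower and 1 higher than the control (background 32.1% lower and 27.9% higher), and at 6 h 9 and 1 (background 33.3% and 32.3%). Plain library totals give 10 and 1 at 3 h and 9 and 1 at 6 h. With that scaling 7345 of the 17696 tested genes were lower and 3824 higher at 3 h, and 6481 and 5179 at 6 h. At 12 h the counts were 4 and 4, near the background of 32.0% and 34.9%. Tufm, the mitochondrial counterpart of eEF1A, was at 114 and 107 CPM in the control, 48.0 and 47.4 CPM after 6 h and 39.4 and 36.5 CPM after 12 h without amino acids, a fall of 1.54 at 12 h (SE 0.062; adjusted p = 6.11e-19 in edgeR). After 12 h without glucose it was at 91.4 and 94.5 CPM. Tsfm, which recharges Tufm, fell by 0.95, 0.98 and 0.65 at 3, 6 and 12 h without amino acids. Without glucose 4 of the 11 were lower and 1 higher at 3 h (background 23.1% and 20.3%), and 2 and 4 at 12 h (background 28.0% and 30.4%), where plain totals give 4 lower and 3 higher.

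Of 9 factors of termination, ribosome recycling and reinitiation, 6 were higher and 2 lower after 6 h without amino acids (background 32.3% and 33.3%). In the 12 h glucose group 2 were higher and 2 lower, both shares under the background of 30.4% and 28.0%. Etf1, the release factor that reads stop codons, was at 261 and 267 CPM in the control, 516 and 516 CPM after 3 h and 202 and 217 CPM after 12 h without amino acids, above the control at the first time (log2 fold change 0.97, SE 0.053, adjusted p = 1.49e-15, edgeR) and below it at the last (log2 fold change -0.33, SE 0.053, adjusted p = 2.70e-06, edgeR). Denr, which serves reinitiation, rose by 0.80 at 3 h without amino acids and by 0.80 at 3 h without glucose, and differed by 0.0055 and -0.10 at 12 h. Gspt2, a paralog of the release factor partner Gspt1, fell by 0.84 at 3 h and rose by 1.43 at 12 h without amino acids.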
